A study of Arabidopsis thaliana with 36 samples.

Results

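The comparison is between 2 RNA-seq libraries of the Arabidopsis thaliana mutant ivd1-2 and the 4 libraries of wild type (WT) and the mutant hml1-2, all taken after 48 h of prolonged darkness. These 6 libraries were picked by their labelled genotype and time out of 36 libraries, which cover 3 genotypes in 6 conditions with 2 libraries each. WT was the Col stock CS60000, and both mutants are named for genes of branched-chain amino acid (BCAA) breakdown. Plants had grown on soil for 5 weeks in 8 h light and 16 h dark, and RNA came from rosette leaves 9 to 12. The other conditions were 0, 6, 24 and 72 h of darkness and 72 h in which the day cycle was kept. The labels give neither the lesion of each allele nor whether the 2 libraries of a group came from separate plants or pools, so p-values measure the spread between libraries, which may be technical.

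Leaves kept in the dark run out of sugar and turn to protein and amino acids as fuel. IVD, isovaleryl-CoA dehydrogenase, is a mitochondrial enzyme that oxidises an intermediate of leucine breakdown and passes the electrons to the respiratory chain through the electron transfer flavoprotein. Hydroxymethylglutaryl-CoA lyase, for which hml1-2 is named, splits the last intermediate of leucine breakdown, several steps downstream of IVD. Its gene was taken to be AT2G26800, which the reference lists only as an aldolase superfamily protein.

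The 6 libraries at 48 h held 18624524 to 36431757 gene counts, of which plastid genes took 0.0946 to 0.211%. The 2 libraries of each group differed by more than counting noise (chi-square per degree of freedom 60.2 to 126). Levels are given in counts per 1e+06 gene counts (CPM), scaled by TMM library factors and not corrected for gene length. Changes are log2 differences. Their standard error (SE) was derived from the test, as the size of the change over the square root of its F statistic. A gene was called when its adjusted p in edgeR's quasi-likelihood test was under 0.05. In whole leaves, fewer cells of a type and less RNA per cell cannot be told apart.

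IVD itself was low in both ivd1-2 libraries. Its level was 1406 and 2091 CPM in WT, 1619 and 1859 CPM in hml1-2, and 335 and 311 CPM in ivd1-2. The groups did not overlap, and the log2 change against the mean of both other genotypes was -2.43 (SE 0.31, adjusted p = 9.13e-05). In WT, IVD was at 21.5 and 21.8 CPM at 0 h and at 991 and 1205 CPM at 6 h, while ivd1-2 was at 3.16 and 6.23 CPM and at 141 and 179.9 CPM. IVD transcript thus stayed detectable in ivd1-2 and was lower than in the other genotypes in every condition, with log2 differences from -2.93 at 24 h to -2.19 in the kept day cycle.

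Of the genes named by the rule given below, the largest fall at 48 h was in the gene next to IVD. MLO3 (AT3G45290), a member of the MLO family of membrane proteins, was at 513 and 684 CPM in WT, 557 and 569 CPM in hml1-2, and 2.72 and 2.06 CPM in ivd1-2. The log2 change was -7.92 (SE 0.66, adjusted p = 1.31e-06). At 0 h the levels overlapped, at 1.86 to 9.89 CPM in WT and hml1-2 and 2.86 and 4.57 CPM in ivd1-2, and in the kept day cycle they lay at 3.25 to 6.84 CPM and at 5.23 and 4.63 CPM. From 6 h of darkness on, MLO3 was at 101 to 820 CPM in WT and hml1-2, and it was under 5 CPM in ivd1-2 at 0, 6, 24, 48 and 72 h. The gene on the other side of IVD, AT3G45310, was not called (log2 change 0.21, adjusted p = 0.668).

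IVD and MLO3 point at each other on chromosome 3 of the TAIR10.1 assembly, with MLO3 on the plus strand at chr3:16617398-16621370 and IVD on the minus strand at chr3:16621452-16625043. The 81 bases between the 2 annotated genes, chr3:16621371-16621451, are shown on the strand of IVD because MLO3, the largest named fall, and IVD end on either side of them. No capitals are used since no part of the stretch is singled out.
IVD to MLO3: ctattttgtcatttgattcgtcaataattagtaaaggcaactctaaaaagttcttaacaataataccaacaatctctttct

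**Figure D1:**
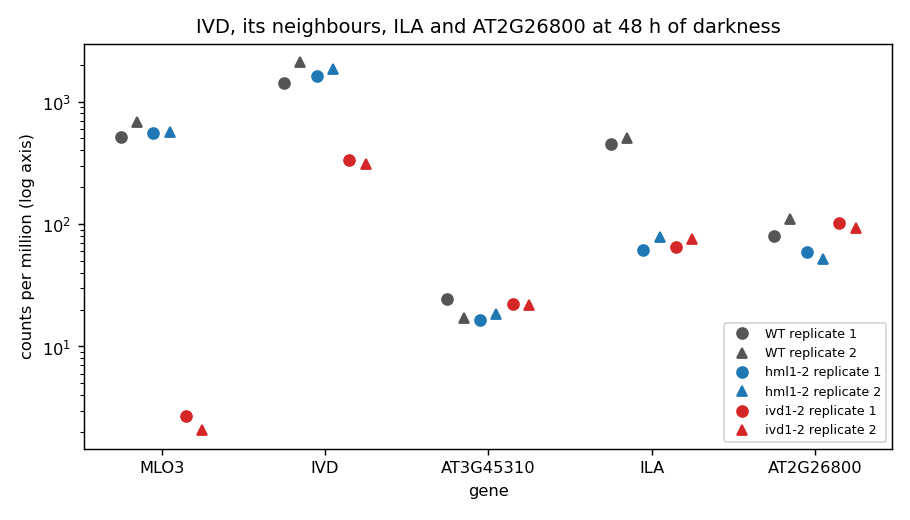
CPM (log axis) of MLO3, IVD, AT3G45310, ILA and AT2G26800 in the 6 libraries at 48 h of darkness, one point per library (circle replicate 1, triangle replicate 2). MLO3 and IVD are low in both ivd1-2 libraries, ILA is low in all 4 mutant libraries, and AT2G26800 is lowest in hml1-2.

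AT2G26800 stood at 80.1 and 111 CPM in WT, 59.1 and 51.8 CPM in hml1-2, and 101 and 92.5 CPM in ivd1-2, and was not called in ivd1-2 against both others (log2 0.41, adjusted p = 0.0697). It was called against hml1-2 (log2 0.81, adjusted p = 0.00843), but hml1-2 against WT did not pass (log2 -0.78, adjusted p = 0.442). ILA (ILITYHIA, a HEAT-repeat protein known from plant immunity and translation control) was at 454 and 504 CPM in WT but at 61.7 and 78.5 CPM in hml1-2 and 65.3 and 75.0 CPM in ivd1-2. Both mutants were therefore low, and ILA was the 1 gene called in hml1-2 against WT (log2 -2.77, adjusted p = 5.83e-08). ILA was also called lower in ivd1-2 against both others (log2 -1.38, SE 0.17, adjusted p = 4.85e-05). Against hml1-2 alone, ILA in ivd1-2 had a log2 difference of 0.00 and did not pass, so that call rested on the distance from WT. AT5G11330, an oxidoreductase, was not called (log2 0.23, adjusted p = 0.403), with 38.8 and 48.5 CPM in WT and 60.7 to 69.5 CPM in both mutants.

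Across all genes, 555 were higher and 431 lower in ivd1-2 than in the mean of both other genotypes, of 19457 tested. That is 5.07% of the genes tested, 2.85% higher and 2.22% lower. Of these, 196 rose and 200 fell at least 2-fold. Both ivd1-2 libraries lay outside all 4 others for 540 of the 555 and for 427 of the 431, against 27.4% of all genes tested. Against WT alone, 380 genes were higher and 341 lower (3.71% of those tested, 1.95% higher and 1.75% lower), and against hml1-2 alone 134 were higher and 155 lower (1.49%, 0.689% higher and 0.797% lower). With DESeq2's size factors the last split turned to 192 higher and 147 lower. Both single comparisons, which share the ivd1-2 libraries, called 113 genes higher and 132 lower (1.26%, 0.581% higher and 0.678% lower). Of the 986 calls against both others, 423 passed against WT and not hml1-2, and 42 against hml1-2 and not WT. A further 175 higher and 101 lower calls passed in neither single comparison. In hml1-2 against WT 0 genes were higher and 1 was lower (0.00514%). An unadjusted p below 0.05 was reached by 450 genes there, fewer than evenly spread p-values would give over 19457 tested genes. DESeq2 called 5 higher and 5 lower.

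These calls rest on a spread shared by all 36 libraries. When the 48 h libraries were fitted alone, with 3 residual degrees of freedom, 1 gene, MLO3, was called against both others. Treating WT and hml1-2 as 1 group of 4 also left MLO3 as the 1 call. A fit of only the ivd1-2 and hml1-2 libraries at 48 h called 0 genes. The count of 986 fell to 333 without ivd1-2 replicate 1, to 355 without ivd1-2 replicate 2 and to 645 without WT replicate 1. It was 1761 with the replicate number as a block and 1618 in DESeq2. The count of genes called in both single comparisons, 245 in all, fell to 94 and 71 without either ivd1-2 replicate, to 126 without WT replicate 1, and to 88 and 98 without either hml1-2 replicate. Against WT alone the count of 721 fell to 231 and 369 without either ivd1-2 replicate and to 184 and 478 without either WT replicate. Against hml1-2 alone the count of 289 fell to 111 and 75 without either ivd1-2 replicate and to 99 and 124 without either hml1-2 replicate.

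**Figure D2:**
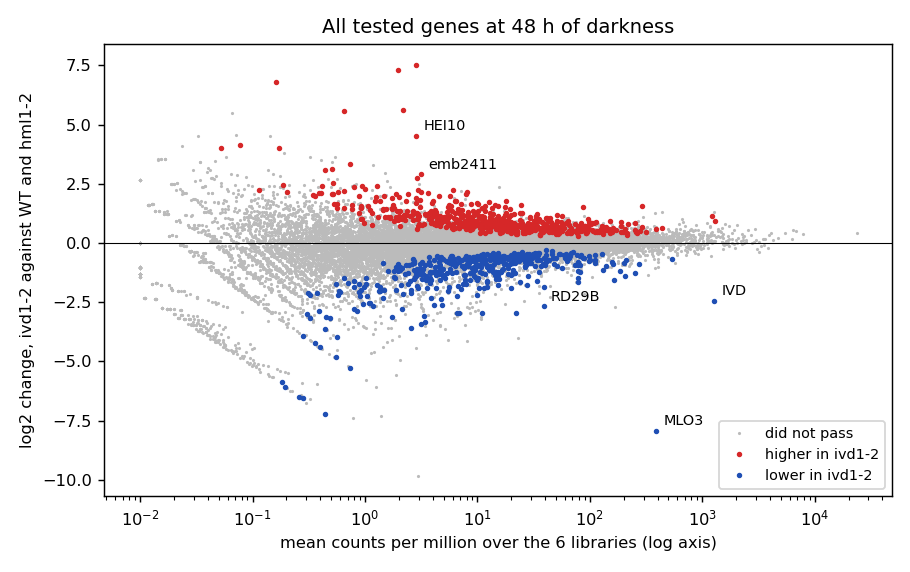
Log2 change in ivd1-2 against WT and hml1-2 at 48 h for every tested gene (19457), against the mean CPM of the 6 libraries on a log axis. Coloured points are the 555 genes called higher and 431 called lower, and MLO3 (-7.92) lies lowest among genes above 100 CPM.

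Genes called in all 3 comparisons of ivd1-2, at 5 CPM or more in the higher group and with no overlap between groups, numbered 97 higher and 106 lower, and the 10 largest changes each way are described. HEI10, a RING-domain protein that promotes meiotic crossovers, was at 0.267 and 0.600 CPM in WT, 0.165 and 0.366 CPM in hml1-2, and 7.96 and 7.66 CPM in ivd1-2 (log2 4.53, SE 0.49, adjusted p = 9.74e-06). Its gene model overlaps MRD1, with 0 counts in the 4 other libraries, 10 and 11 counts in ivd1-2 and a call of its own (adjusted p = 0.00566), and MUM4, which was not called (log2 -0.01, adjusted p = 0.994). The labels name a stranded kit, but no source used here gives the strand setting of the counting. Whether reads in the overlaps were given to a gene or left out as ambiguous is therefore not known.

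emb2411, annotated as a DNA replication helicase, stood at 0.724 and 1.09 CPM in WT, 0.878 and 1.30 CPM in hml1-2, and 6.77 and 7.96 CPM in ivd1-2 (log2 2.89, SE 0.28, adjusted p = 4.08e-06). Both ivd1-2 values were several times those of every other library at this time. At 0 h, however, emb2411 stood at 4.93 to 6.70 CPM in WT and hml1-2 and at 6.31 and 6.23 CPM in ivd1-2. By 6 h all 6 libraries were at 1.47 to 2.29 CPM, and at 24 h ivd1-2 stood at 5.03 and 4.29 CPM beside 0.582 to 1.27 CPM. CSD1, which overlaps emb2411 and is much more abundant, was not called (log2 0.25, adjusted p = 0.816).

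The other 8 large rises spanned several roles. UKL2, a uridine kinase-like enzyme of nucleotide salvage, was at 1.83 to 3.35 CPM in the 4 others and 12.6 and 13.2 CPM in ivd1-2 (log2 2.25, SE 0.38, adjusted p = 0.00143). ALY1, related to the fly cell-cycle regulator Always early, was at 2.53 to 5.05 CPM and at 20.5 and 12.8 CPM (log2 2.16, SE 0.33, adjusted p = 0.000537). The importin IMPA-6, which carries proteins into the nucleus, rose by a log2 of 2.06 (SE 0.31) and the predicted protein kinase PPK1 by 2.00 (SE 0.27). EHD2, a protein of endocytosis, rose by 1.98 (SE 0.35), and AT2G30480, uncharacterised, by 2.16 (SE 0.26). APC8, a subunit of the anaphase-promoting complex, went from 1.04 to 2.52 CPM in the others to 7.66 and 4.09 CPM, a log2 of 1.82 (SE 0.27). APC8 had 207 counts in the 4 others, and AT3G48140, which overlaps it, had 35411. AT3G48140 was not called (log2 0.11, adjusted p = 0.628). AT1G77310 rose by 1.79 (SE 0.30), but it overlaps MEI1, a BRCT-domain gene needed for meiosis that was also higher (log2 1.61, adjusted p = 0.000284). These 10 rises kept their calls without any 1 of the 6 libraries at 48 h.

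After IVD and MLO3, the large falls were of mixed function. RD29B, a classic dehydration and abscisate-responsive gene, was at 34.6 and 46.7 CPM in WT, 66.2 and 69.9 CPM in hml1-2, and 7.22 and 9.20 CPM in ivd1-2 (log2 -2.68, SE 0.43, adjusted p = 0.000751). CYP707A2, an enzyme that degrades abscisate, was at 8.68 to 10.9 CPM in the 4 others and at 2.27 and 2.71 CPM in ivd1-2 (log2 -1.93, SE 0.37, adjusted p = 0.00415). AT5G52070, an Agenet-domain gene, was at 12.3 to 20.0 CPM and at 1.78 and 2.11 CPM (log2 -2.97, SE 0.32). By the naming rule, these 3 and the other large falls had no overlap with the 4 other libraries. XDH2, a xanthine dehydrogenase of purine breakdown, fell by 2.95 on the log2 scale and AT2G19970, a CAP-family secreted protein, by 2.96. The lectin-type receptor kinase AT2G43700 fell by 2.36, the polyketide cyclase and lipid transport family member AT5G28010 by 2.31, and TLL1, a triacylglycerol lipase-like protein, by 2.20. Without ivd1-2 replicate 1, CYP707A2, XDH2, AT5G28010 and TLL1 lost their calls, and without ivd1-2 replicate 2, AT2G19970 did.

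**Figure D3:**
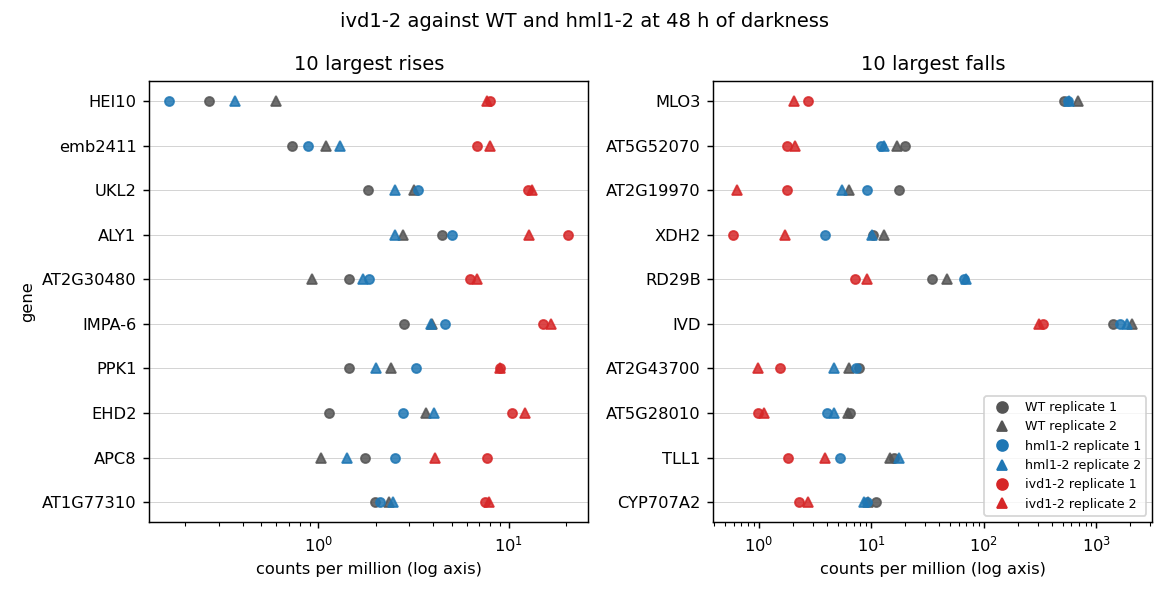
CPM (log axes) of the 10 largest rises, left, and 10 largest falls, right, in each of the 6 libraries at 48 h, with circles for replicate 1 and triangles for replicate 2. In each row both ivd1-2 points (red) lie on one side of the 4 others, as the naming rule required. The gap is widest for MLO3 (2.72 and 2.06 CPM against 513 to 684 CPM).

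Apart from 4 later lists noted below, the gene lists were drawn up with earlier results of these data known. Their counts are therefore a description and not independent evidence. Among genes that make the BCAA, 3 of 13 were higher and 0 lower, where 2.85% of all tested genes were higher. BCAT3, a plastid aminotransferase that completes BCAA synthesis, was at 5.07 and 6.98 CPM in WT, 7.32 and 9.49 CPM in hml1-2, and 23.5 and 23.9 CPM in ivd1-2 (log2 1.74, SE 0.18, adjusted p = 5.98e-06). In WT it had been at 49.2 and 57.0 CPM at 0 h, so ivd1-2 at 48 h was between the lit and dark levels. OMR1, threonine deaminase of isoleucine synthesis, rose by a log2 of 1.30 (SE 0.26, adjusted p = 0.00507) and IMD2, isopropylmalate dehydrogenase of leucine synthesis, by 0.87 (SE 0.24, adjusted p = 0.035). IMD2 did not pass against WT alone (adjusted p = 0.0775) or hml1-2 alone (adjusted p = 0.166). For 10 of the 13 both ivd1-2 libraries were above all 4 others, beside 14% of all tested genes. The list's median log2 change was 0.62, beside -0.02 over all tested genes. OMR1 was uneven, at 4.79 and 9.46 CPM, and the count of 3 fell to 1 without ivd1-2 replicate 2 and to 2 without ivd1-2 replicate 1, WT replicate 1 or hml1-2 replicate 1.

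Of 19 genes that break the BCAA down, IVD was the 1 called, and it was lower. This share is near the 5.07% called over all tested genes. The list's median log2 change was 0.36. ETFQO, which takes electrons from the flavoprotein into the respiratory chain, had a log2 of 0.59 (adjusted p = 0.125), and BCDH BETA1, of the branched-chain keto acid dehydrogenase, had 0.67 (adjusted p = 0.0985). WT replicate 1 was low for several members, and without WT replicate 2 the list had 3 higher and 1 lower. Of 22 genes for breakdown of other amino acids, MGL, methionine gamma-lyase, was the 1 called (log2 1.12, SE 0.32, adjusted p = 0.0436), at 448 to 1194 CPM in the 4 others and 1911 and 1869.9 CPM in ivd1-2. It did not pass against WT alone (adjusted p = 0.0862) or hml1-2 alone (adjusted p = 0.213). MGL lost its call without either ivd1-2 library, WT replicate 1 or hml1-2 replicate 1.

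In the abscisate list, 0 of 24 were higher and 3 lower, where 2.22% of all tested genes were lower, and the list's median log2 change was -0.32. Beside RD29B and CYP707A2 it was RD29A, a stress gene adjacent to RD29B, at 134 and 347 CPM in WT, 283 and 507 CPM in hml1-2, and 100 and 155 CPM in ivd1-2 (log2 -1.27, SE 0.32, adjusted p = 0.0235). RD29A did not pass against WT alone (adjusted p = 0.169). Its groups overlapped, since WT replicate 1 lay below ivd1-2 replicate 2. NCED3, an abscisate-producing enzyme, had a log2 of -0.81 (adjusted p = 0.2), at 28.3 to 30.6 CPM in the others and 15.9 and 17.6 CPM in ivd1-2. The count of 3 fell to 1 without ivd1-2 replicate 1 and to 2 without ivd1-2 replicate 2, WT replicate 2 or hml1-2 replicate 2.

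The 250 bases before the annotated start were read for the named rises and falls in RefSeq's TAIR10.1 assembly, with motifs in capitals. They are printed for RD29B and RD29A, adjacent abscisate-list genes that fell, and for ALY1 as a rise that held ACGTG, as RD29B did. CYP707A2, the other abscisate-list gene called lower, held 0 of the 4 motifs searched and is not printed. Both strands were searched for 4 motifs. The core of the abscisate-response element, ACGTG, was in 22.9% of 27437 promoters of this length. The G-box, CACGTG, which contains that core on both strands, was in 6.49%. The core of the W-box, TTGAC, was in 44.9%, and the sugar-response element TATCCA was in 13.7%. The plus-strand windows are chr5:21236771-21237020 for RD29B, chr5:21240467-21240716 for RD29A and chr5:9763885-9764134 for ALY1.
RD29B: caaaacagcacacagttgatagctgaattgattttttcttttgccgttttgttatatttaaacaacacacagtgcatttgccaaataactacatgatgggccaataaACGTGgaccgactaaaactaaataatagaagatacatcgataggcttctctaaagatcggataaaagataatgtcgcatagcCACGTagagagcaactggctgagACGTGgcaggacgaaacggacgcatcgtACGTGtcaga
RD29A: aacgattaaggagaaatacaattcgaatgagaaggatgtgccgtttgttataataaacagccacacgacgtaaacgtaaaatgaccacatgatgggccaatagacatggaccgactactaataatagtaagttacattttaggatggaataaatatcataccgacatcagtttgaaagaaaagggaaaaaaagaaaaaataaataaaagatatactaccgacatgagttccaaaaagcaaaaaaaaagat
ALY1: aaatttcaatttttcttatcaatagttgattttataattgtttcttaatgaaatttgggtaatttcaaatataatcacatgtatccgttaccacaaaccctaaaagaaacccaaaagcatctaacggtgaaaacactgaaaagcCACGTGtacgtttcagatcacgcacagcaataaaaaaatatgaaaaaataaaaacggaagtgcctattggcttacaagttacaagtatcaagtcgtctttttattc

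RD29B held 4 matches to ACGTG, the RD29A window held 0 of the 4 motifs searched, and the CACGTG of ALY1 counts as 2 overlapping matches to ACGTG. Bases beyond these windows, including those after the annotated start, were not read, and other motifs were not searched for. Among the 10 rises 2 promoters held ACGTG and 4 held TTGAC, and among the 10 falls 3 held ACGTG and 3 held TTGAC. A match is a description of the letters, not evidence of binding.

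In the starch list, 2 of 18 were higher and 1 lower, beside 2.85% and 2.22% of all tested genes. The plastid phosphoglucose isomerase PGI1 rose by a log2 of 0.54 (SE 0.15, adjusted p = 0.035) and SEX4, a phosphatase acting on starch, by 1.02 (SE 0.29, adjusted p = 0.0424). SEX4 did not pass against WT alone (adjusted p = 0.206) or hml1-2 alone (adjusted p = 0.0785). PGI1 did not pass against hml1-2 alone (adjusted p = 0.306). CT-BMY, a chloroplast beta-amylase that cuts maltose from starch, was at 75.0 to 131 CPM in the others and 28.0 and 37.6 CPM in ivd1-2 (log2 -1.64, SE 0.25, adjusted p = 0.000507). CT-BMY kept its call without any 1 library, whereas the 2 rises were lost without either ivd1-2 library, WT replicate 1 or hml1-2 replicate 1. PGI1 was also lost without hml1-2 replicate 2 and SEX4 without WT replicate 2.

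Of 12 genes of indolic glucosinolates and camalexin, 0 were higher and 2 lower, where 2.22% of all tested genes were lower. MYB34, a regulator of this pathway, was at 1.42 to 3.66 CPM in the others and 0.445 and 0.129 CPM in ivd1-2 (log2 -3.11, SE 0.56, adjusted p = 0.00224). CYP79B3, its tryptophan-using entry enzyme, was at 51.6 and 30.8 CPM in WT, 5.95 and 35.9 CPM in hml1-2, and 1.98 and 5.46 CPM in ivd1-2 (log2 -2.97, SE 0.61, adjusted p = 0.00656). CYP79B3 did not pass against hml1-2 alone (adjusted p = 0.057). Of 16 aliphatic glucosinolate genes, the regulator MYB28 was the 1 called, near the 5.07% of all tested genes (log2 -2.02, SE 0.49, adjusted p = 0.0173), though the list's median log2 change was -2.16, or -2.08 with genes at 0 counts set to their bound. The list was low in hml1-2 too, and summed to 110 and 82.7 CPM in WT, 36.5 and 37.9 CPM in hml1-2, and 31.4 and 26.6 CPM in ivd1-2. Against WT 3 of the 16 were lower and against hml1-2 0 were, with MYB28 at an adjusted p of 0.181 there. MYB34 lost its call without ivd1-2 replicate 2, CYP79B3 without ivd1-2 replicate 1, and MYB28 without either of these or hml1-2 replicate 2.

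Salicylate genes had a low median with no call. Of 20, 0 were higher and 0 lower, at a median log2 change of -1.67, or -0.91 with genes at 0 counts in one group set to the bound of 3 counts over that group. DESeq2 called 0 higher and 2 lower. The list summed to 619 and 182 CPM in WT, 408 and 193 CPM in hml1-2, and 220 and 193 CPM in ivd1-2. PR2, a defence glucanase, was at 53.1 and 0.164 CPM in WT and at 78.3 and 1.24 CPM in hml1-2, high in replicate 1 of both, and at 3.86 and 0.258 CPM in ivd1-2.

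With 5.07% of all tested genes called, the 1 or 2 calls in each list named next are near the background. NDA1, an alternative mitochondrial NAD(P)H dehydrogenase, rose (log2 1.36, adjusted p = 0.0207), as the 1 of 12 tested in the mitochondrial dysfunction list. C4H, of phenylpropanoid synthesis, rose (log2 0.84, adjusted p = 0.0304) as the 1 of 10 flavonoid genes. GSA1, an early enzyme of chlorophyll synthesis, fell (log2 -0.57, adjusted p = 0.0207) as the 1 of 16. In autophagy, of 26, the C54 peptidase AT2G44140 rose (log2 0.40, adjusted p = 0.042) and the kinase AT2G37840 fell (log2 -0.46, adjusted p = 0.0315). NDA1, C4H, GSA1, AT2G44140 and AT2G37840 passed against WT alone but not against hml1-2 alone. JAZ6, a jasmonate repressor, fell (log2 -0.93, adjusted p = 0.0411), at 80.7 to 107 CPM in the others and 49.1 and 49.2 CPM in ivd1-2. JAZ6 did not pass against WT alone (adjusted p = 0.0758) or hml1-2 alone (adjusted p = 0.135). The remaining jasmonate call of 19 tested, PDF1.2, and the flower-list call AT3G02310, a MADS-box gene, rested on ivd1-2 replicate 1, with 3.76 and 11.6 CPM there and 0 CPM in replicate 2. Without that library their log2 changes were -3.21 and -3.09. NDA1 and GSA1 lost their calls without either ivd1-2 library, WT replicate 1 or hml1-2 replicate 1. C4H lost its call without either ivd1-2 library, WT replicate 2 or hml1-2 replicate 2, and AT2G37840 without ivd1-2 replicate 1, WT replicate 2 or hml1-2 replicate 2. AT2G44140 and JAZ6 kept theirs only without WT replicate 2.

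The lists for starvation, ageing, photosynthesis and stress below had 0 calls, and with 5.07% of all tested genes called, 0 in a list of this size is near that share. There were 0 calls among 19 dark and sugar starvation genes, 16 for nitrogen remobilization, 8 for chlorophyll breakdown, 22 senescence factors and markers, and 20 for peroxisomal beta-oxidation. Photosynthesis gave 0 of 29 light harvesting and photosystem genes and 0 of 16 Calvin cycle genes. Hormone and stress lists gave 0 of 20 for ethylene, 0 of 16 for oxidative stress, 0 of 10 for heat shock, 0 of 12 for endoplasmic reticulum stress and 0 of 11 for sulfur deficiency. The clock gave 0 of 14, cytosolic ribosome 0 of 14 and cell wall loosening 0 of 11. ORE1, a transcription factor of leaf ageing, had a log2 of -0.13 (adjusted p = 0.948).

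Some genes of the cell-cycle ligase, DNA replication and repair were higher in ivd1-2. Their 4 lists were drawn up after the values of these data had been seen, so their counts are a description and not independent evidence. Of 16 genes of the anaphase-promoting complex, a ubiquitin ligase of the cell cycle, 5 were higher and 0 lower, beside 2.85% and 2.22% of all tested genes. AT1G06590, a subunit, was at 7.93 and 7.47 CPM in WT, 10.3 and 8.14 CPM in hml1-2, and 25.8 and 25.5 CPM in ivd1-2 (log2 1.61, SE 0.14, adjusted p = 1.51e-06). The others were APC6 (log2 2.28), APC8 (log2 1.82), APC7 (log2 1.34) and HBT, a CDC27 subunit (log2 0.59). For each of these 5 both ivd1-2 libraries lay above all 4 others. This held for 540 of the 555 genes called higher and for 14% of all tested genes. Over the alternative fits, the lowest log2 change among the 5 was 0.50, for HBT. The subunit AT2G04660 had a log2 of -0.53 (adjusted p = 0.235), and the median over the 16 was 0.26.

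Of 17 replicative polymerase, clamp loader and associated genes, 7 were higher and 0 lower, emb2411 among them, beside 2.85% and 2.22% of all tested genes. POLD4, a small subunit of DNA polymerase delta, was at 8.31 to 15.03 CPM in the others and 30.4 and 30.8 CPM in ivd1-2 (log2 1.50, SE 0.14, adjusted p = 2.5e-06). AT5G63960, the first subunit of the same polymerase, had a log2 of 1.31, RFC2 of the clamp loader 1.67, RFC4 0.65, the single-strand binding protein RPA1A 0.85 and the exonuclease AT5G26680 1.36. The count fell to 4 without either ivd1-2 library or WT replicate 2.

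Of 20 tested genes for meiotic recombination and break repair, 5 were higher and 1 lower, beside 2.85% and 2.22% of all tested genes. Besides HEI10 and MEI1 these were the damage-response kinases ATM (log2 0.72) and ATR (log2 1.33) and NBS1 of the MRE11 complex (log2 1.46), whereas MSH4, a meiotic mismatch-repair relative, fell from 0.381 to 1.13 CPM in the others to 0.0494 and 0.0860 CPM (log2 -3.18). Leaving out ivd1-2 replicate 1 gave 3 higher and 0 lower. Of 14 cohesin, condensin and SMC5/6 genes 3 were higher, beside the same 2.85%: HEB2 (log2 1.66), MIM (log2 1.55) and SMC5 (log2 0.71), of which 1 remained called without ivd1-2 replicate 2.

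Markers of dividing cells were low throughout. Of 7 tested, 0 were called, none exceeded 1.20 CPM in ivd1-2, and their sum was 2.47 and 3.05 CPM in ivd1-2 and 3.69 to 4.20 CPM in the others. Their part in these results was not tested. A list of 13 tested DNA replication genes, drawn up with earlier results of these data known, also had 0 calls. Its median log2 change was -0.34. Markers of other cell types had 0 calls in guard cell (6 tested), phloem (5), root (2) and mesophyll (7) lists. The epidermis list summed to 749 and 823 CPM in ivd1-2 and to 952 to 1335 CPM in the others, with 0 of 7 called, and PDF1 of that list was at 0 to 0.141 CPM. Whether the share of epidermis had a part in these results was not tested. The mesophyll sum was 1262 and 1345 CPM in ivd1-2 and 999 to 1419 CPM in the others.

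**Figure D4:**
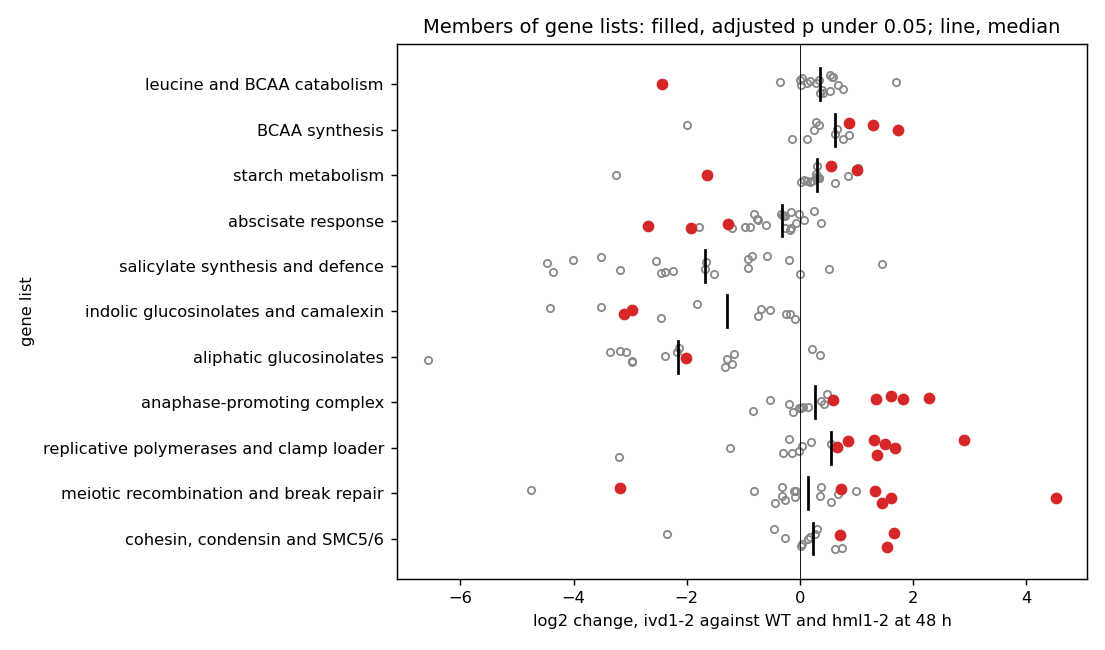
Log2 change in ivd1-2 against WT and hml1-2 at 48 h for each tested member of 11 gene lists, with filled points for calls, open points for genes that did not pass, and a line at the median. The anaphase-promoting complex has 5 called members on the right and a median of 0.26, and the salicylate list lies to the left with 0 calls. The last 4 lists were drawn up after values were seen.

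The 48 h calls were then read in the other conditions, each with its own 6 libraries. At 24 h 205 genes were called (1.05% of those tested), and 179 of them were 48 h calls in the same direction, which is 87.3% of the 24 h calls and 18.2% of the 48 h calls. At 24 h 0.684% of tested genes were higher and 0.37% lower. The sign at 24 h matched for 971 of the 986, against 73.5% of all tested genes, and the median log2 change of the 555 higher genes was 0.54 at 24 h and 0.83 at 48 h. At 0 h and in the kept day cycle 1 gene was lower in each (0.00514%). At 6 h 3 genes were called (0.0154%), 1 higher (0.00514%) and 2 lower (0.0103%). In these 3 conditions, 0 h, kept cycle and 6 h, the sign matched for 49.5%, 49.2% and 58.4% of the 48 h calls.

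At 72 h 5826 genes were called (29.9%, 16.5% higher and 13.5% lower), of which 778 shared the 48 h call, 78.9% of the 48 h list and 13.4% of the 72 h list, with 0 in the opposite direction. Without ivd1-2 replicate 1 of 72 h, the 1 library left out here, 1540 genes were called at 72 h, 635 shared (64.4% of the 48 h list and 41.2% of the 72 h list) and 981 of 986 kept the sign. The change of the contrast between times was tested as such. The ivd1-2 contrast at 48 h minus 24 h had 0 calls in edgeR, and DESeq2 called 0 higher and 16 lower. An unadjusted edgeR p below 0.05 was reached by 430 genes, fewer than evenly spread p-values would give over 19457 tested genes. At 72 h minus 48 h there were 0 calls in edgeR, at a smallest adjusted p of 0.0708, while 3129 genes reached an unadjusted p below 0.05 and DESeq2 called 789 higher and 81 lower. With the replicate number as a block edgeR called 93. The edgeR count of 0 became 5729 without ivd1-2 at 72 h replicate 2, 1 without WT at 72 h replicate 1 and 0 without ivd1-2 at 72 h replicate 1.

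Levels of single genes at other times were as follows. AT1G06590 was at 7.97 and 7.56 CPM in WT and 15.4 and 16.0 CPM in ivd1-2 at 24 h, and at 9.65 and 11.1 against 32.3 and 43.4 CPM at 72 h. ALY1 in ivd1-2 was at 11.4 and 10.1 CPM at 24 h and 47.4 and 26.8 CPM at 72 h, while WT stayed at 1.70 to 3.01 CPM at both times. EHD2 at 72 h was at 6.31 and 9.07 CPM in WT beside 10.8 and 16.9 CPM in ivd1-2. RD29B in WT was at 7.29 and 8.35 CPM at 24 h and 155 and 125 CPM at 72 h, while ivd1-2 was at 11.0 and 25.6 CPM at 72 h. The change of these genes between times was not called.

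**Figure D5:**
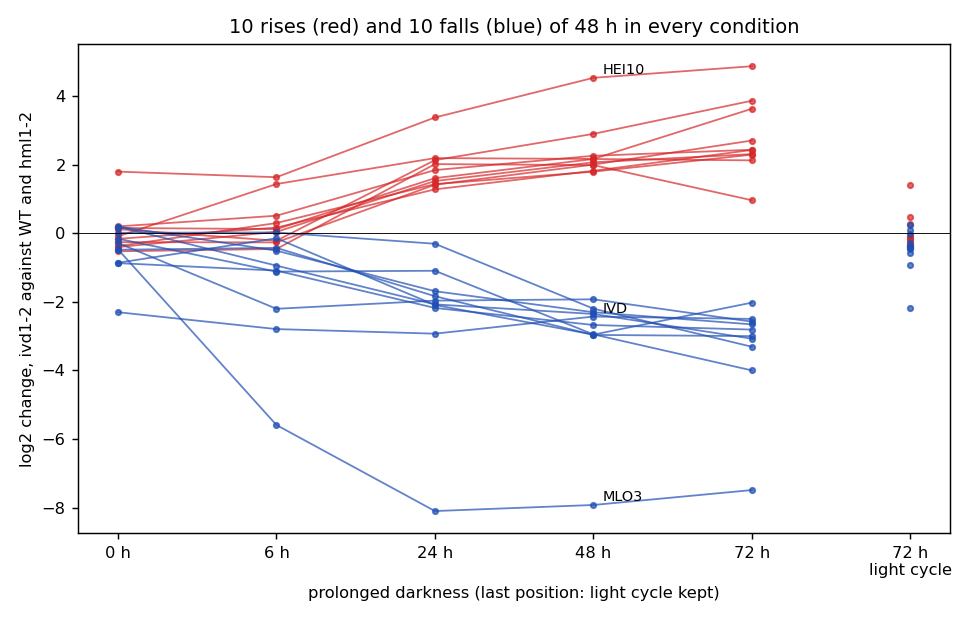
Log2 change in ivd1-2 against WT and hml1-2 in each condition for the 10 largest rises (red) and 10 largest falls (blue) of 48 h, over prolonged darkness, with the kept day cycle as separate points. Plotted values vary between genes and times, and differences between courses were not tested. IVD is low in every condition (-2.43 at 48 h), and HEI10 is at 1.79 at 0 h. MLO3 is at -5.59 and CYP707A2 at -2.21 at 6 h, and TLL1 is at -0.31 at 24 h. Of these values, HEI10 at 0 h, CYP707A2 at 6 h and TLL1 at 24 h were not called. CYP707A2 at 6 h was at 0.27 to 0.54 CPM in WT and hml1-2 and 0.12 and 0.06 CPM in ivd1-2.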

How the data were processed

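The deposited tables hold raw counts of reads per gene, whole numbers made by the authors with HTSeq, with no version or strand setting given in the labels or notes. Per the submitters' processing notes, the tools also included Trimmomatic 0.30, TopHat 1.4.1, SAMtools 0.1.19 and Cuffdiff 2.1.1, with the TAIR10 build, and per the labels' protocols a stranded kit was used. Each table holds 28774 genes. Reads with no feature took 0.981 to 1.34% and ambiguous reads 2.00 to 2.36% of all reads at 48 h, and stayed out of library sizes and tests.

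Genes were kept by edgeR's filterByExpr (minimum count 10, minimum total 15; 19457 genes). edgeR 4.0.16 (R 4.3.3) with TMM fitted 18 groups over 36 libraries (18 residual degrees of freedom). Contrasts were tested by its quasi-likelihood test, and p-values were adjusted by Benjamini and Hochberg's method across every tested gene. ivd1-2 was set against the mean of WT and hml1-2, against each alone, and between times. The script was tested on simulated counts. Of the locus codes, 28009 matched the reference, which names the genes. Promoters were read from TAIR10.1 by its own annotation.

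The genes named were the 10 largest rises and 10 largest falls called in all 3 contrasts, at 5 CPM or more in the higher group and with no overlap, up to 3 called members of each of 36 gene lists, and 5 genes named always. These lists, the comparison and its members were chosen with earlier results of these data known, and 4 further lists after the values were seen. Genes named outside these rules were chosen after their values were seen. Alternatives were DESeq2 1.42.0, its size factors in edgeR, other filters, a replicate block, fits of fewer libraries, and each library left out in turn.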

Additional observations from a re-analysis of the deposited data

Results flagged for a closer look

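Among the genes examined, 60 in all, the 4 WT and hml1-2 libraries at 48 h were checked for one library far from the other 3, and 3 genes had one. Chance alone gives about 1 such gap in 20 groups. SEX4 was low in hml1-2 replicate 1, at 0.357 CPM beside 0.763 to 0.845 CPM, a gap of 0.833 of the whole range. GSA1 was high in WT replicate 1, at 38.1 CPM beside 33.8 to 34.5 CPM, a gap of 0.851 of the range. RPA1A was high in hml1-2 replicate 1, at 11.3 CPM beside 6.14 to 6.71 CPM, a gap of 0.890 of the range.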

How the results depend on the processing

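With each 48 h library left out in turn, the count of calls ran from 333 to 879 against both other genotypes, 184 to 478 against WT, 75 to 124 against hml1-2, 71 to 174 in both, and 1 to 2 in hml1-2 against WT. For the differences between times, with libraries of either time left out, it ran from 0 to 0 for 48 h minus 24 h and from 0 to 5729 for 72 h minus 48 h. DESeq2 called 1618, 1329, 776, 628 and 10 genes in the first 5 comparisons, and 16 and 870 for the time differences. Fits of the compared groups alone called 1, 1, 0, 0 and 0, and WT with hml1-2 as 1 group of 4 called 1. A minimum of 2-fold left 396, and with no filter on low counts 161 were called in both.

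The replicate numbers are shared across groups, but the labels do not say what a number marks. Deviations of same-numbered libraries correlated at 0.477 to 0.692 at 48 h, and the first principal component (48.3%) separated the numbers in all 3 genotypes. With the replicate block 1761, 1391, 686 and 587 genes were called against both, WT, hml1-2 and in both, 1 in hml1-2 against WT, 0 for 48 h minus 24 h, and 93 for 72 h minus 48 h. Of the 986 calls, 986 were called under the block and 970 by DESeq2.

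Of 61 gene values, 60 kept direction and side of the threshold under DESeq2, 59 with its size factors, and 3 in the fit of the compared groups. Those 3 were MLO3, which stayed called, and AT2G26800 and AT5G11330, which were called in neither fit. Without ivd1-2 replicate 1, 24 lost the call and 2 reversed, AT3G02310 to -3.09 and PDF1.2 to -3.21. Over all libraries left out in turn these 2 reached 8.35 and 7.46 at most. With 2 libraries a group, a change near the threshold rests on single libraries, and 3 counts over a group were the least taken as a level.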
